A study of Saccharomyces cerevisiae with 8 samples.

Results

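The mitochondrial ribosomal proteins of budding yeast (Saccharomyces cerevisiae) are described here through 73 of the 6569 genes in the deposited table. They were chosen by name: genes called MRPL, MRPS, MRP or RSM with a number, and IMG1, IMG2, NAM9, YMR31, YML6, MNP1, RML2 and PET123. Of these, 41 encode proteins of the large subunit and 30 proteins of the small subunit. The other 2, MRP8 and YMR31, carry such names but are not assigned to either subunit. MRP8 was named from its sequence and has no established function, and YMR31 is now known as KGD4, a subunit of the alpha-ketoglutarate dehydrogenase complex. All 73 members passed the filter on low values in wild type and in the prp4-1 pair.

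The mitochondrial ribosome translates the few messages encoded by mitochondrial DNA, nearly all for core subunits of the respiratory chain and of the ATP synthase. Apart from one small-subunit protein made inside the organelle, its proteins are encoded in the nucleus, translated in the cytosol and imported, so that this ribosome is built from the products of both genomes. Many messages for these proteins carry, downstream of the coding sequence, a short element bound by the RNA-binding protein Puf3, which in yeast acts on their decay and their place at the mitochondrial surface.

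Poly(A) RNA was sequenced from strand-specific libraries of cultures grown in YPD medium to an optical density of 0.5. The wild type was BY4741, a MATa strain with LEU2, MET15 and URA3 deleted among its marker genes, grown at 30 °C. Cultures received 200 ng/mL of rapamycin, which inhibits the TORC1 kinase, for 10 min or 60 min, and others received none, with 2 biological replicates of each. A second experiment set prp4-1 pGAL-IFH1 against prp4-1, at 26 °C with 1 library each. Both carry prp4-1, an allele of a spliceosomal protein gene. The prp4-1 strain is MATalpha with ade2, leu2 and ura3 mutations, and in prp4-1 pGAL-IFH1 a marker and the GAL1 promoter precede IFH1, whose product activates cytosolic ribosomal protein genes. The labels give a drop in IFH1 of about 50%.

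Values are scaled signal per gene, where the authors multiplied each library by a constant, and read depth per gene is unknown. Summed over genes, the libraries held between 2025663 and 3319861. STE2, the alpha-factor receptor of MATa cells, had 720 to 1058 in the 6 wild-type libraries, against 22.5 in prp4-1 and 28.7 in prp4-1 pGAL-IFH1. IFH1 signal was 86.1 in prp4-1 pGAL-IFH1 and 154 in prp4-1. The prp4-1 pair also differed elsewhere: MET17 and URA3 were at 0 in prp4-1 pGAL-IFH1, against 1495 and 111 in prp4-1, whose label gives a ura3 mutation.

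Within the 200 bases after the stop codon, 70 of the 73 members (95.9%) held the letters TGTANATA on the coding strand, where N is any base. Of all 6002 genes with such a window, 844 (14.1%) did. These letters are the core of the element that Puf3 is known to bind, and they were found in 41 of 41 large-subunit members and 29 of 30 small-subunit members. The 3 members without them were MRP8, YMR31 and RSM22. The sites below, from R64 (the same build as sacCer3), belong to members with some of the largest changes in wild type. Capitals mark the TGTANATA letters, 5′ to 3′ on the coding strand. They lie at chrX:619113-619138 (plus strand) for RSM26, chrXI:599051-599076 (minus) for MRPL20, chrVII:375741-375766 (plus) for MNP1, chrXI:185227-185252 (minus) for MRPL31, chrIV:540464-540489 (plus) for RSM10, chrXIV:103077-103102 (minus) for MRPL10, chrXVI:528842-528867 (minus) for MRPS16 and chrXIII:224309-224334 (minus) for YML6.
RSM26: cttatatacTGTAAATAgttttattt
MRPL20: taacaatcgTGTAAATActactctat
MNP1: aatatatcaTGTAAATAtgtttaact
MRPL31: aatttcatcTGTATATAgtttaatca
RSM10: tttcgtactTGTAAATAaaataggtg
MRPL10: attctcactTGTACATAccttaagat
MRPS16: tatcagactTGTAAATAatacatcta
YML6: aaaataatcTGTAAATAataagccca
The first site of a member began at a median of 51.5 bases after the stop codon, between 8 and 139, and 12 members had more than 1. RSM26, MRPL20, MNP1 and MRPL31 were lower at 60 min of rapamycin. RSM10 and MRPL10 were higher at 10 min, and MRPS16 and YML6 were lower at 10 min. These members were picked for their changes and nearly all members hold the letters, so the sites shown say nothing on direction. A match is a description of the sequence. This search was added after the members' values were known.

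In untreated wild type the members had a median signal of 221 and 215 in the 2 libraries, against 106 and 106 over all genes. Whether the deposited signal is already per base is not stated, so levels are ordered here only where the signal and the signal per kb of exon gave the same end of the list. MRPL39, MRP10 and MRPL37 were among the 5 highest on both scales. Their signal per kb averaged 2693 for MRPL39, 1821 for MRP10 and 1538 for MRPL37. RSM22, RSM23, MRPL35 and MRPS35 were among the 5 lowest, with signal per kb averaging 40.3, 91.2, 97.8 and 116. MRPL39 is the counterpart of bacterial ribosomal protein L33, and RSM22 a small-subunit protein related to methyltransferases. On signal per kb alone the 5 highest also held MRPL33 and RSM19, and the 5 lowest NAM9. YML6 and MRPL44 are the only members with an intron. MRP4 and MRPL51 each overlap an annotated gene on the other strand, YHL005C and YPR099C. The libraries are strand-specific, but whether the signal was summed by strand is not stated. The values of both members are uncertain to that extent.

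After 60 min of rapamycin most mitochondrial ribosomal protein genes were lower than in untreated cells on the authors' scaling. Of 73 members, 46 fell and 11 rose, and 16 did not pass limma's test at an adjusted p under 0.05. Over all 6127 tested genes, 38.5% fell and 38.6% rose (77.1% in either direction), so that the share of members that fell (63.0%) was above the background and the share that rose (15.1%) below it. The median change of the members was -0.35 on the log2 scale, against -0.004 for all tested genes. The direction of these counts turned when each library was scaled to its total signal instead. Then 49 members were higher and 4 lower (RSM26, MRPL20, MNP1 and MRPL31), beside 3997 and 1125 of all 6127 tested genes. The share of members that was higher was thus near the background, and the share that was lower below it. The members' median was then 0.33, against 0.66 for all genes. That rescaling shifted the median of all genes by 0.66. Relative to the median of all genes, the members' median was -0.34 on the authors' scaling and -0.32 on total signal, and 53 of 73 members lay under the all-gene median on both. Cytosolic ribosomal proteins held 2.46% and 2.50% of all signal at 60 min, against 28.2% and 29.5% in untreated cells, and their part in this shift was not tested. The values are relative within a library, and transcripts per cell were not measured.

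**Figure D1:**
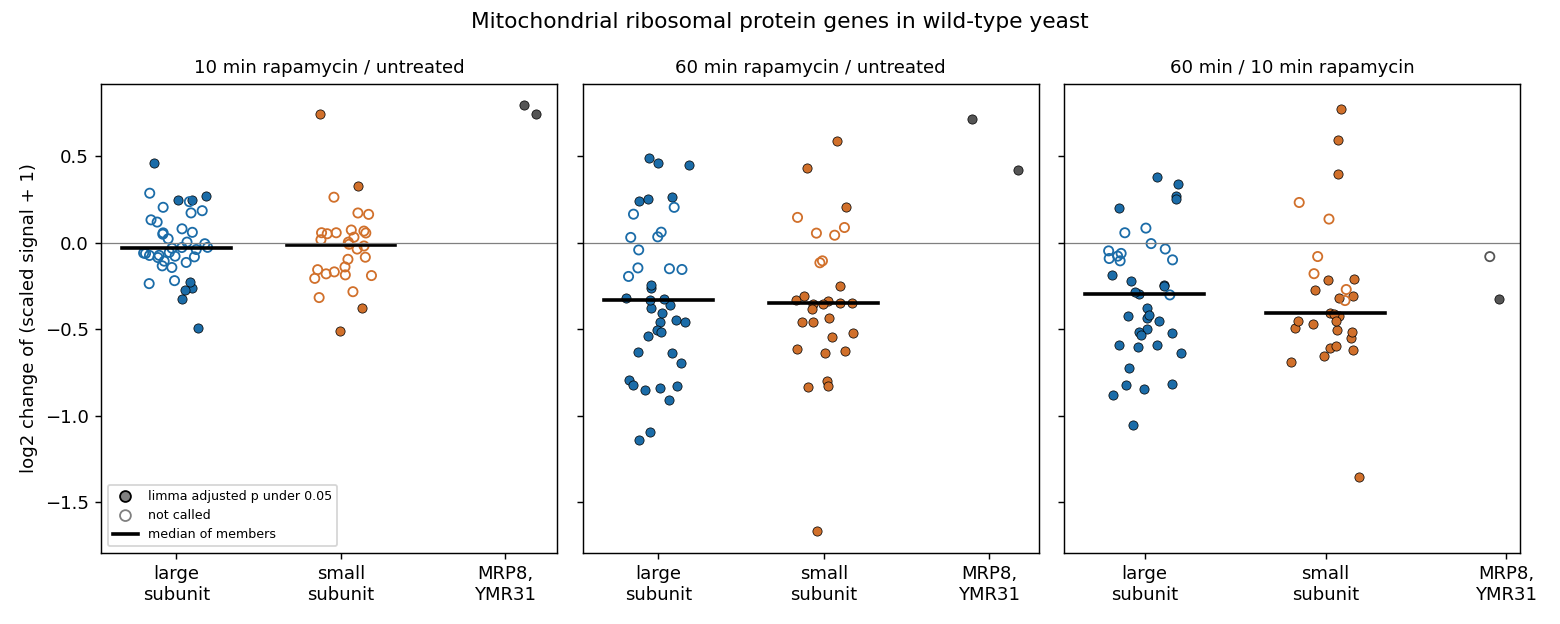
Log2 change of scaled signal plus 1 (y axis) for each member in 3 wild-type comparisons, by subunit, with MRP8 and YMR31, assigned to neither, set apart. Filled points passed limma's adjusted p under 0.05 and lines are medians over members. At 60 min against untreated most filled points lie under 0, and the medians of large and small subunit are -0.33 and -0.35. These are on the authors' scaling. When libraries are scaled to total signal the medians are 0.35 and 0.33, against 0.66 for all genes.

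The members that fell most at 60 min came from both subunits. RSM26, a small-subunit protein related to superoxide dismutases, had 65.3 and 50.6 in the 60 min libraries, against 163 and 210 in untreated ones. Its change was -1.67 ± 0.16 (SE, limma adjusted p = 3.55e-05), to 0.315 of the untreated level. Both treated libraries lay far under both untreated ones, which differed more from each other than in most members. MRPL20, a large-subunit protein without a bacterial counterpart, had 129 and 134 at 60 min, against 283 and 299 in untreated cells, a change of -1.14 ± 0.07 (limma adjusted p = 2.09e-06). The MRPL20 libraries agreed closely within each group. MNP1, the counterpart of the bacterial L12 protein of the ribosomal stalk, had 197 and 178 at 60 min, against 369 and 436 (-1.09 ± 0.12, limma adjusted p = 6.05e-05). MRPL31, also without a bacterial counterpart, had 148 and 158, against 293 and 282 in untreated cells (-0.91 ± 0.07, limma adjusted p = 8.77e-06). These 4 stayed lower under either scaling, and in each of them treated and untreated libraries did not overlap. Such separation was seen in 65 members at 60 min (89.0%), against 88.1% of all tested genes.

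The next largest falls at 60 min lay between -0.85 and -0.82. In the large subunit they were MRPL11 (-0.85), the counterpart of bacterial L10 at the base of the stalk, MRPL49 (-0.84), IMG1 (-0.83) and MRPL37 (-0.82). In the small subunit they were MRPS5 (-0.84) and MRPS8 (-0.83), counterparts of bacterial S5 and S8, and MRP13 followed with -0.80. MRPS5 had 69.7 and 65.1 at 60 min, against 125 and 118 in untreated cells, and its groups were apart by more than the spread within either. None of these 7 was still called lower when libraries were scaled to total signal. The libraries of IMG1 in untreated cells were far from each other, at 448 and 301, and the 60 min values of 199 and 214 lay under both.

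Among the 11 members that rose at 60 min, the largest change was in YMR31, which had 466 and 480, against 276 and 299 in untreated cells (0.72 ± 0.08, limma adjusted p = 0.000111). RSM22 was next, with 120 and 109, against 69.6 and 82.4 (0.59 ± 0.10, limma adjusted p = 0.000891). The 60 min libraries of both genes were above every untreated one. MRPL27 (0.49), MRPL36 (0.46), MRPL16 (0.45), MRPS18 (0.43), MRP8 (0.42), MRPL23 (0.27), RML2 (0.25) and MRP7 (0.24) followed, with MRP51 (0.21). MRPL16, RML2 and MRP7 are counterparts of bacterial L16, L2 and L27, proteins at or near the site of peptide bond formation, and MRPS18 of bacterial S11. All 11 were also called higher on total-signal scaling. The calls of MRP8, MRPL23 and RML2 were lost without library 23 of the 60 min group, that of MRP7 without library 26 of that group, and that of MRPL23 also without untreated library 21. The call of MRP51 was not followed when libraries were left out. With any 1 library left out, the median of all members at 60 min lay between -0.38 and -0.32.

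**Figure D2:**
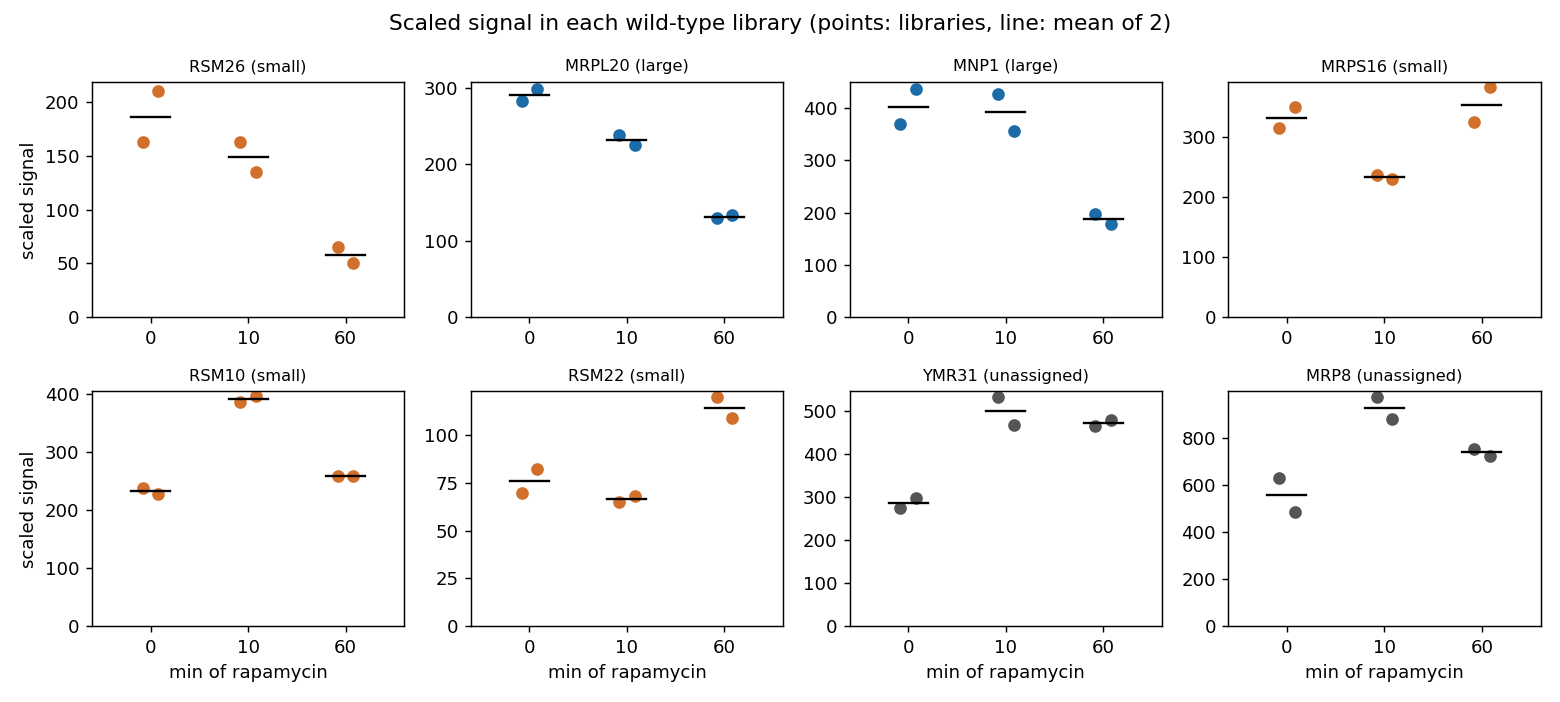
Scaled signal (y axis) of 8 members in each wild-type library at 0, 10 and 60 min of rapamycin. YMR31 and MRP8 among them are not assigned to a subunit. Points are libraries and lines the mean of the group. RSM26, MRPL20 and MNP1 are lowest at 60 min, MRPS16 is lowest at 10 min, RSM10 is highest at 10 min, RSM22 is highest at 60 min, and YMR31 and MRP8 are above untreated cells at both times.

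At 10 min fewer members were called, in both directions. Of 73 members, 8 rose (11.0%) and 7 fell (9.59%), where 26.8% of all tested genes rose and 30.2% fell (57.0% in either direction). The members' median was -0.03 and that of all genes -0.02. In 38 members (52.1%) treated and untreated libraries did not overlap, against 76.8% of all tested genes. Total-signal scaling shifted the median of all genes by 0.21, and 2560 of the 6127 tested genes were then higher and 1152 lower. Of the members, 31 were higher, a share near that background, and 2, MRPS16 and YML6, were lower. The counts also moved with single libraries: without library 24 of the untreated group 15 were higher and 13 lower, without library 22 of the 10 min group 5 and 6, and without library 25 of that group 6 and 4.

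The rises at 10 min were led by YMR31, with 533 and 468, against 276 and 299 in untreated cells (0.80 ± 0.08, limma adjusted p = 0.000133). MRP8 had 972 and 880, against 628 and 484 (0.75 ± 0.12, limma adjusted p = 0.00143). Of the proteins assigned to a subunit, RSM10, the counterpart of bacterial S10, rose most. It had 386 and 396 at 10 min, against 238 and 228 (0.74 ± 0.06, limma adjusted p = 3.83e-05), and every treated library was well above every untreated one. MRPL10, the counterpart of bacterial L15, had 246 and 252, against 177 and 185 (0.46 ± 0.07, limma adjusted p = 0.000761). RSM19 (0.33), MRPL23 (0.27), MRPL16 (0.25) and MRPL22 (0.25) rose less. The calls of MRPL16 and MRPL23 were lost without untreated library 21 and, with that of MRPL22, without either 10 min library.

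The falls at 10 min were led by MRPS16 and YML6, counterparts of bacterial S16 and L4. MRPS16 had 237 and 230 at 10 min, against 315 and 350 in untreated cells (-0.51 ± 0.10, limma adjusted p = 0.00294). YML6 had 136 and 142, against 201 and 190 (-0.49 ± 0.08, limma adjusted p = 0.00107). In both genes the treated libraries lay under the untreated ones with a clear gap. MRP13 (-0.38), MRPL20 (-0.32), MRPL6 (-0.27), MRPL11 (-0.26) and MRPL4 (-0.23) fell less, and none of these 5 was called on total-signal scaling. The call of MRPL4 was also lost without any 1 of 5 of the 6 libraries, that of MRPL11 without any 1 of 4, and that of MRPL6 without untreated library 24 or 10 min library 25. YML6 is spliced, and the signal does not say whether it counts its intron. MRPL44, the other member with an intron, had a change of -0.07 at 10 min, which was not called, and fell by 0.32 at 60 min, where it was 0.36 higher on total-signal scaling.

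Set directly against each other, 60 min was lower than 10 min in 47 members and higher in 8, where 33.8% of all tested genes were lower and 35.4% higher (69.2% in either direction). In 66 members (90.4%) the libraries of 60 and 10 min did not overlap, against 87.0% of all tested genes. The members' median was -0.33, against 0.02 for all genes. On total-signal scaling, which shifted the all-gene median by 0.45, the direction turned, with 30 members higher and 8 lower. Over all 6127 tested genes 3775 were then higher and 908 lower. The members' median relative to that of all genes was -0.35 on the authors' scaling and -0.33 on total signal. The largest falls were in RSM26 (-1.35), MNP1 (-1.05), MRPL31 (-0.88), MRPL49 (-0.84), MRPL35 (-0.82) and MRPL20 (-0.81), followed by IMG2 (-0.72), MRPS8 (-0.69), MRPS5 (-0.66) and MRPL15 (-0.64). RSM10 fell by 0.60 to 258 and 259 at 60 min (limma adjusted p = 0.0001), close to its untreated values. The calls of RSM10, IMG2 and MRPL15 were lost on total-signal scaling. The rises were in RSM22 (0.77), MRPS16 (0.60), MRPS18 (0.40), MRPL36 (0.38), RML2 (0.34), MRP7 (0.27), MRPL27 (0.25) and MRPL16 (0.20). The calls of MRPL16 and MRPL27 were lost when any 1 of the 4 treated libraries was left out, that of MRPS18 without library 22 or 26, and that of MRP7 without library 26. Leaving out any 1 library left the members' median between -0.37 and -0.32.

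The courses of the members over both times sorted as follows, relative to the same untreated libraries. Not called at 10 min and lower at 60 min was the commonest course among the members, with 40 of them, 20 of each subunit. Over all tested genes 57.0% were called at 10 min and 77.1% at 60 min, in either direction, and 38.5% were lower at 60 min. How many of all tested genes followed each course was not counted, so the courses have no background to be set against. MRP13, MRPL4, MRPL6, MRPL11, MRPL20 and YML6 were lower at both times, although on total-signal scaling MRPL4, MRPL6 and YML6 had a change above 0 at 60 min. MRP8, MRPL16, MRPL23 and YMR31 were higher at both. MRP51, MRP7, MRPL27, MRPL36, MRPS18, RML2 and RSM22 were higher at 60 min but not called at 10 min. MRPL10, MRPL22, RSM10 and RSM19 were higher at 10 min but not called at 60 min, and MRPS16 was lower at 10 min but not called at 60 min. The other 11 were called at neither time, among them MRPL50, MRP20 and RSM18, whose changes at 60 min were -0.04, 0.03 and -0.12.

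The medians of the large and the small subunit are given side by side, with no test of their difference. At 60 min 25 of 41 large-subunit members fell (61.0%) and 6 rose (14.6%), with a median of -0.33. In the small subunit 21 of 30 fell (70.0%) and 3 rose (10.0%), with a median of -0.35. Over all tested genes 38.5% fell and 38.6% rose. At 10 min 5 large-subunit members fell (12.2%) and 4 rose (9.76%), and 2 small-subunit members fell and 2 rose (6.67% each). Over all tested genes 30.2% fell and 26.8% rose. The medians of large and small subunit were -0.03 and -0.01. From 10 to 60 min the medians were -0.29 for the large and -0.41 for the small subunit. The difference of these medians, large minus small, was -0.02 at 10 min, 0.02 at 60 min and 0.11 for 60 against 10 min. Across all 8 libraries the median signal of large-subunit members was 0.981 to 1.09 times that of small-subunit members, and the summed signal 1.29 to 1.42 times. The highest ratio, on both measures, was in prp4-1 pGAL-IFH1.

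**Figure D3:**
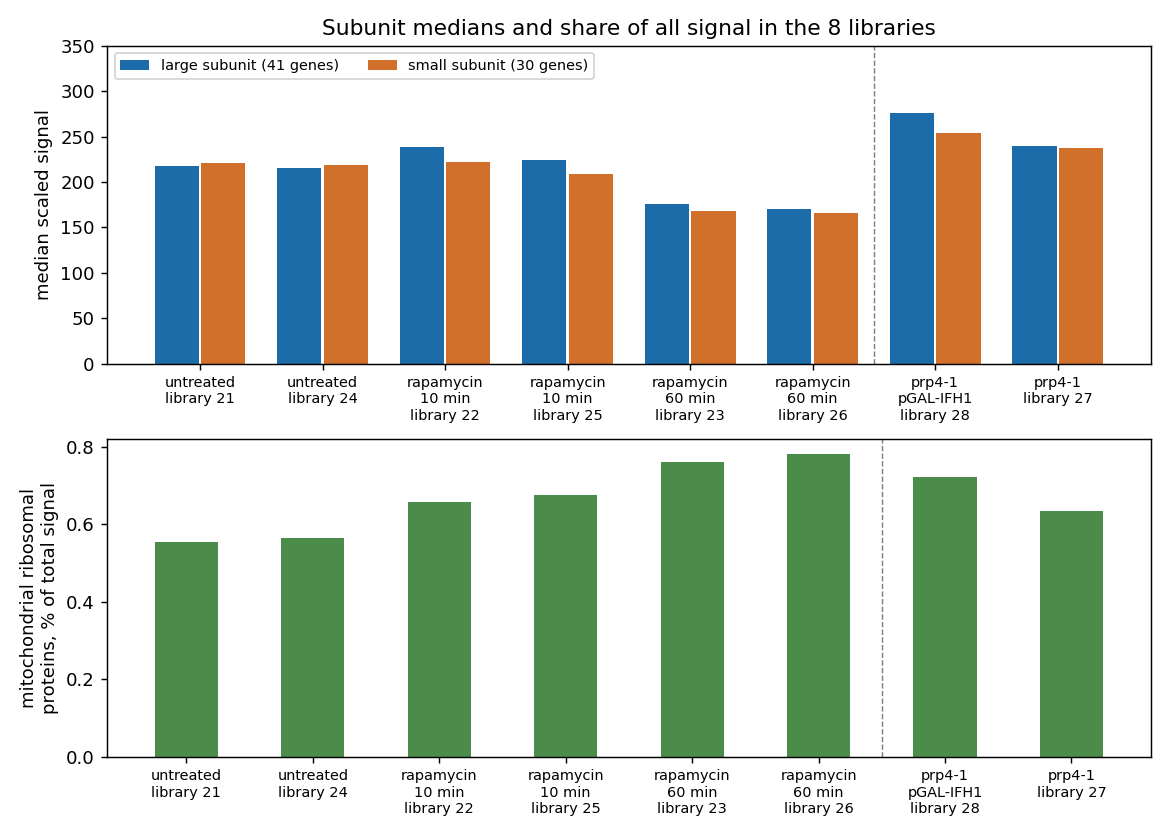
Median scaled signal of the 41 large-subunit and 30 small-subunit genes (top) and the share of total signal held by all 73 members (bottom) in the 8 libraries. The medians are lowest at 60 min of rapamycin, while the share of total signal is higher there, at 0.761% and 0.780%, than in untreated cells, at 0.555% and 0.564%. Levels left and right of the dashed line are not on a common scale.

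Proteins with a bacterial counterpart and proteins found only in mitochondria were taken separately. At 60 min the median was -0.30 for 26 bacterial-type and -0.36 for 15 mitochondria-specific large-subunit proteins, of which 15 and 10 fell. In the small subunit it was -0.34 for 18 bacterial-type and -0.45 for 12 mitochondria-specific proteins, of which 12 and 9 fell. Over all 6127 tested genes 38.5% fell at 60 min, and the median was -0.004. These values are on the authors' scaling. The medians of all 4 classes were above 0 on total-signal scaling, between 0.23 and 0.38, where the median of all genes was 0.66. As a share of all signal, the 73 members together held 0.555% and 0.564% in untreated cells, 0.658% and 0.676% at 10 min, and 0.761% and 0.780% at 60 min, a course set against a falling total.

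Other genes of mitochondrial translation were counted in 5 lists. Of the 51 genes, 24 rose (47.1%) and 7 fell (13.7%) at 10 min, where 26.8% of all tested genes rose and 30.2% fell, with a median of 0.20. At 60 min 19 rose (37.3%) and 14 fell (27.5%), against 38.6% and 38.5% of all tested genes, with a median of 0.07, so the share that rose was near the background. On total-signal scaling 2560 of all 6127 tested genes were higher and 1152 lower at 10 min, and 3997 and 1125 at 60 min. Of the 51 genes, 35 were then higher and 5 lower at 10 min, and 44 higher and 0 lower at 60 min. The number of the 51 genes called higher at 10 min dropped without 10 min library 22 or 25, as did the share of all tested genes. Among the 13 mitochondrial tRNA synthetases, 9 rose (69.2%) and 0 fell at 10 min, and 7 rose (53.8%) and 1 fell (7.69%) at 60 min, beside the same all-gene shares. SLM5, which charges asparagine tRNA, had 99.1 and 98.2 at 60 min, against 39.8 and 37.4 in untreated cells (1.33, limma adjusted p = 1.31e-06). MSF1, which charges phenylalanine tRNA, rose by 1.14.

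Of 9 translation factors, 7 rose (77.8%) at 10 min, against 26.8% of all tested genes. At 60 min 3 rose and 3 fell (33.3% each), near the all-gene 38.6% and 38.5%. MEF2, a factor of ribosome recycling, had 75.1 and 73.4 at 10 min, against 24.3 and 26.3 in untreated cells (1.52, limma adjusted p = 3.93e-06), and was then lower than in untreated cells at 60 min, with 18.1 and 18.7 (-0.44, limma adjusted p = 0.00214). RRF1, the ribosome recycling factor, had a change of 0.40 at 10 min and of -0.81 at 60 min, both called. On total-signal scaling 7 of the 9 factors were higher and 0 lower at 60 min, so these falls were not called there. Of 10 genes for ribosome assembly and rRNA, 4 fell (40.0%) and 2 rose (20.0%) at 10 min, against 30.2% and 26.8% of all tested genes, and 7 fell (70.0%) and 1 rose (10.0%) at 60 min, against 38.5% and 38.6%. Their median was -0.37 at 60 min on the authors' scaling and 0.30 on total signal. GEP3, which acts in assembly of the small subunit, had 45.1 and 50.8 at 10 min, against 99.2 and 103 in untreated cells (-1.06, limma adjusted p = 2e-05). MRM1, an rRNA methyltransferase, had a change of -0.64 at 10 min and 0.20 at 60 min. Among 14 translational activators, 6 rose (42.9%) and 2 fell (14.3%) at 10 min, against 26.8% and 30.2% of all tested genes. At 60 min 7 rose (50.0%) and 1 fell (7.14%), against 38.6% and 38.5%. The largest of these was in ATP22, an activator of translation of an ATP synthase subunit, at 1.76 at 60 min.

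Of the subunit proteins that the choice of names left out, 5 were counted: FYV4, SWS2, MHR1, RTC6 and EHD3. This list is not complete, as VAR1 was not analysed. At 60 min 2 of the 5 fell (40.0%) and 1 rose (20.0%), against 38.5% and 38.6% of all tested genes. FYV4, a small-subunit protein, had 93.5 and 99.9, against 173 and 169 (-0.81, limma adjusted p = 2.44e-05). SWS2, the counterpart of bacterial S13, had 286 and 308, against 372 and 372 (-0.32, limma adjusted p = 0.00285). On total-signal scaling 4 of the 5 were higher and 0 lower at 60 min, so neither fall was called there. Their median was then 0.53, against 0.66 for all genes. In 35 genes of the respiratory chain and ATP synthase, whose mitochondrially encoded partners these ribosomes make, 30 rose (85.7%) and 0 fell both times. Over all tested genes 26.8% rose and 30.2% fell at 10 min, and 38.6% and 38.5% at 60 min. At each time 31 of the 35 had an unadjusted limma p under 0.05, in either direction. Their medians were 0.51 at 10 min and 0.69 at 60 min. The cytosolic ribosomal proteins had medians of -0.53 and -4.31, with 116 (84.7%) and 136 (99.3%) of 137 lower, beside the same all-gene shares.

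**Figure D4:**
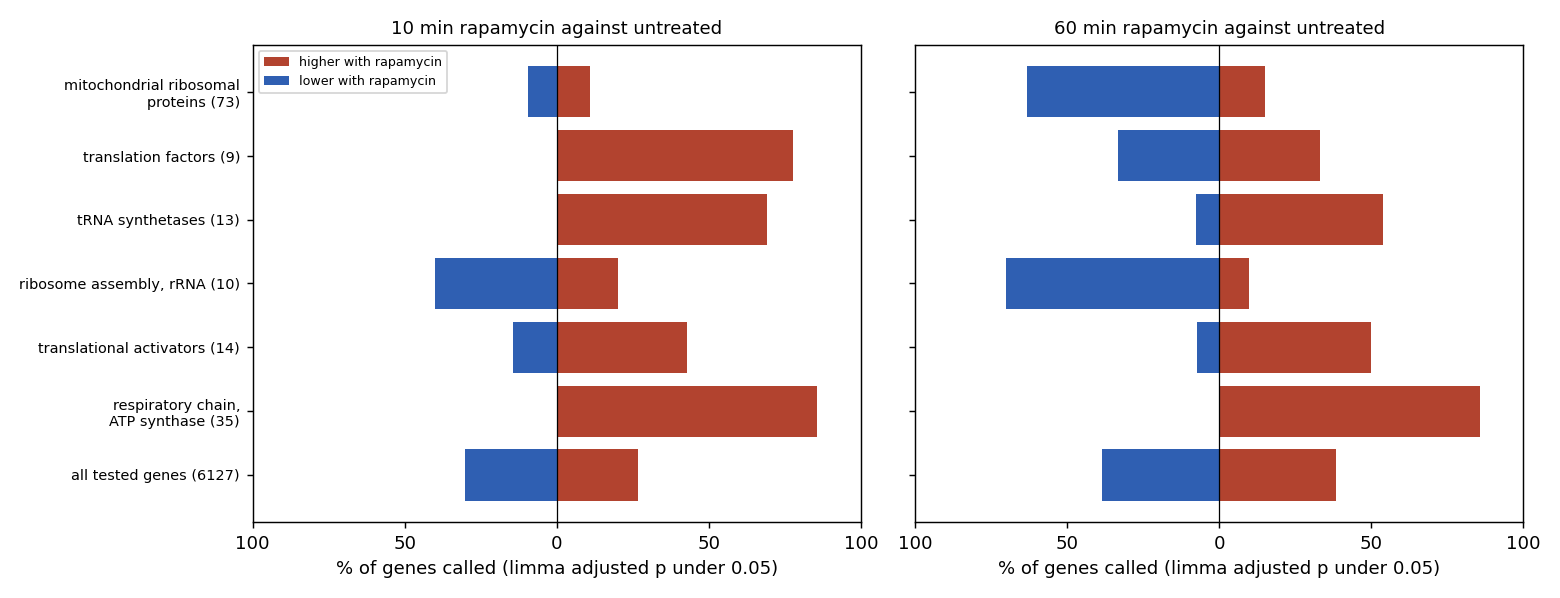
Percent of the genes of each list (number in brackets) called higher, to the right, or lower, to the left, by limma at an adjusted p under 0.05, at 10 and 60 min of rapamycin against untreated cells. The 73 mitochondrial ribosomal protein members include MRP8 and YMR31, which are not assigned to a subunit. At 60 min 63.0% of the 73 are lower, while 85.7% of respiratory chain and ATP synthase genes are higher. On total-signal scaling 49 of these 73 members are higher at 60 min instead, as are 3997 of all 6127 tested genes.

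The prp4-1 pair has 1 library in each arm, so its ratios have no replicate check. With IFH1 under the GAL1 promoter, 3 members were past 1.5-fold higher and 2 past 1.5-fold lower than in prp4-1, against 18.2% and 21.5% of the 6222 genes compared. The other 68 lay within that range. The median log2 ratio of prp4-1 pGAL-IFH1 over prp4-1 was 0.10 (0.13 for the large and 0.07 for the small subunit), against 0.0008 for all genes, with 53 members above 0 and 20 below. On total-signal scaling it was 0.21, against 0.11 for all genes. The highest ratios were in MRPL27 (435 against 268, 0.70), MRPL15 (214 against 138, 0.62), MNP1 (572 against 377, 0.60), MRPL37 (693 against 486, 0.51) and MRPL9 (318 against 231, 0.46). All 5 belong to the large subunit.

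The lowest ratios in the pair were in the 2 members not assigned to a subunit. MRP8 had 488 in prp4-1 pGAL-IFH1 and 1023 in prp4-1 (-1.07), and YMR31 had 198.5 and 409 (-1.04). MRPL24 (-0.57), YML6 (-0.26) and MRPL28 (-0.24) were next, all within 1.5-fold. The 35 respiratory chain and ATP synthase genes had a median of -1.37, with 33 past 1.5-fold lower (94.3%). The 137 cytosolic ribosomal proteins had one of -0.47, with 50 past it (36.5%), against 21.5% of all genes compared. HAP4, the activating subunit of the complex that drives respiratory genes, had 279 in prp4-1 pGAL-IFH1 and 632 in prp4-1. Its part in these ratios was not tested.

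**Figure D5:**
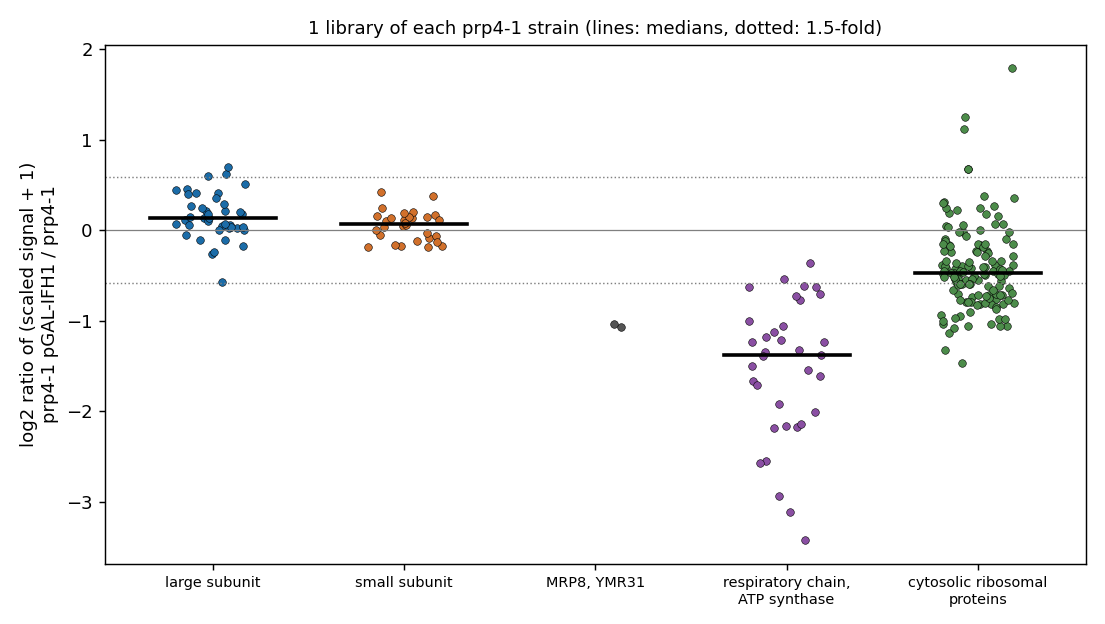
Log2 ratio of scaled signal plus 1, prp4-1 pGAL-IFH1 over prp4-1 (y axis), for each gene of 5 lists, from 1 library of each strain. Lines are medians and dotted lines mark 1.5-fold. Large-subunit and small-subunit genes centre at 0.13 and 0.07, MRP8 and YMR31 lie near -1, and the respiratory chain and ATP synthase genes centre at -1.37.

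MRP8, YMR31 and RSM22, the members without TGTANATA after the stop codon, all rose at 60 min of rapamycin. Only RSM22 among them is assigned to a subunit. The 70 members with the letters had medians of -0.03 at 10 min and -0.35 at 60 min, with 46 lower and 8 higher at 60 min. Over all tested genes 38.5% were lower and 38.6% higher. These values are on the authors' scaling, and on total signal 49 of the 73 members were higher at 60 min and 4 lower. Whether the letters bear on these changes was not tested. Among genes outside the list, 754 held the letters, and their median changes were 0.01 at 10 min and -0.06 at 60 min, against -0.02 and 0.004 for the 4868 without them. PUF3 itself had 21.5 and 22.0 at 10 min and 24.5 and 24.4 at 60 min, against 30.6 and 25.2 in untreated cells.

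Promoters of the members, from 250 bases before to 50 after the start codon, were searched on both strands for 4 short motifs. AAATTTT, the core of the rRNA processing element, was in 16.4% of them and in 23.2% of all 6001 promoters. GATGAG, the core of the PAC element, was in 15.1% and 20.4%, CCAAT, the letters bound by the Hap complex, in 41.1% and 43.3%, and AGGGG, the stress response element, in 17.8% and 21.6%. MRPL6, MRPS16 and RSM19 held both AAATTTT and GATGAG, which is 4.11% of members, against 7.75% of all promoters. At 10 min MRPS16 and MRPL6 fell and RSM19 rose. In MRPL6, MRPS16 and RSM19 the upstream neighbour, IMP3, RRP12 and DBP6 in that order, is transcribed away from the member. The gaps between the genes are 250, 372 and 267 bases. Which gene of each pair these letters serve was not tested. For 43 members the upstream neighbour was transcribed away from the member, and for 30 it was on the same strand.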

How the data were processed

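Per the labels, poly(A) RNA was made into dUTP strand-specific libraries. The submitters' processing notes name TopHat, Bowtie and the sacCer3 build, without versions. The deposited values are scaled signal per gene, on a scale of 1 constant per library. Neither the summary of reads per gene nor the choice of constant is given in the sources used here, and the depth is unknown. The other 8 columns, of unscaled signal, were not used. Libraries are called by the numbers in the file headers.

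Signal was fitted as log2(signal + 1) with limma 3.58.1 (R 4.3.3) and an intensity trend. The fit held all 6 wild-type libraries, took group as its single term and covered the 6127 genes averaging 1 or more. P-values were adjusted by Benjamini-Hochberg over all of them and called under 0.05. They rest on the spread between the 2 replicates within each wild-type group, pooled over those groups and drawn by limma towards the intensity trend. The prp4-1 pair got ratios, with no test, for the 6222 genes averaging 1 or more over the pair. The fit was tested on simulated data.

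Members and lists were chosen with earlier results of these data known, so lists are described by counts and medians. In each comparison the text names the 10 largest rises and falls among called members that averaged 10 or more and whose groups did not overlap, the 2 of each subunit with the smallest p, the 5 highest and 5 lowest per kb in untreated cells, and the 5 highest and 5 lowest in the prp4-1 pair, with MRP8 and YMR31. Of the other lists, the genes with the smallest p were named. Members named only by their course, by an intron or by an overlap were added after their values were seen. Alternatives were other pseudocounts (0.1 and 10), other filters, total-signal scaling, no trend, only the 2 groups compared, and each library left out. Coordinates and sequence are from NCBI RefSeq, build R64, where 73 of 73 members had the coordinates of the deposited table. MRPL19 and VAR1 were not analysed here.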

Additional observations from a re-analysis of the deposited data

Results flagged for a closer look

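In 21 members the fitted changes at 10 and 60 min had opposite signs, 1 of the 2 was called, and limma called 60 against 10 min (differences are 60 minus 10 min, log2). MRPS16 was under untreated cells at 10 min (-0.51, called) and not called at 60 min (0.09), with a difference of 0.596 (limma adjusted p = 0.000924) and 325 and 384 at 60 min, against 237 and 230 at 10 min. For the other 20 the 60 min change was the called one. Some of their 10 min changes were near 0, as in NAM9 (0.004), MRPL49 (0.004) and PET123 (0.02). How many of all genes met the same rule was not counted. RSM22 (0.77), RML2 (0.34) and MRP7 (0.27) were higher at 60 min. The other 17 were lower at 60 min: MRPL49 (-0.84), MRPL35 (-0.82), MRPL7 (-0.54), MRPL8 (-0.52), MRPL32 (-0.51), MRPL9 (-0.42), MRPL28 (-0.38) and MRPL40 (-0.28) of the large subunit, and MRPS12 (-0.61), NAM9 (-0.55), RSM24 (-0.51), MRP2 (-0.51), RSM23 (-0.49), PET123 (-0.45), MRPS28 (-0.41), MRP17 (-0.41) and MRP21 (-0.31) of the small subunit. On total-signal scaling 2 of the 21, MRPS16 and MRPL49, still had opposite signs. The changes of MRPS16 at 10 and 60 min were then -0.29 and 0.77, both called, and those of MRPL49 0.22 and -0.16, neither called.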

How the results depend on the processing

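Scaling libraries to total signal turned the medians of the members in wild type, except where stated. At 10 min 31 members were then higher and 2 lower, with medians of 0.19 (all), 0.18 (large) and 0.20 (small), and by class 0.19 and 0.16 (large, bacterial-type and mitochondria-specific) and 0.23 (above 0 on both scalings) and 0.16 (small). At 60 min 49 were higher and 4 lower, with 0.33, 0.35 and 0.33, and by class 0.38, 0.32, 0.34 and 0.23. For 60 against 10 min 30 were higher and 8 lower, with 0.14, 0.17 and 0.0552, and by class 0.21, 0.0305, 0.10 and 0.0247. Of the 51 other genes, 44 were higher and 0 lower at 60 min, and 33 and 3 for 60 against 10 min. Over all 6127 tested genes 2560 were then higher and 1152 lower at 10 min. At 60 min 3997 and 1125 of them were, and for 60 against 10 min 3775 and 908. In the prp4-1 pair the medians moved to 0.21, 0.25 and 0.19. Without an intensity trend 4 members fell at 10 min.

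Leaving out 1 library gave 5 to 15 higher and 4 to 13 lower members at 10 min, 7 to 12 and 39 to 46 at 60 min, and 4 to 9 and 35 to 51 for 60 against 10 min. Other genes rose in 12 to 26 cases at 10 min, and fell in 12 to 21 for 60 against 10 min. Medians at 10 min ran from -0.0385 to 0.0056 (all), -0.0492 to 0.028 (large) and -0.053 to -0.0132 (small), and by class from -0.0394 to 0.0289 (large, bacterial-type), -0.0581 to 0.0182 (small, bacterial-type) and -0.0881 to 0.01 (small, mitochondria-specific). At 60 min they ran from -0.38 to -0.32 (all), -0.34 to -0.27 (large, bacterial-type) and -0.34 to -0.31 (small, bacterial-type). For 60 against 10 min they ran from -0.37 to -0.32 (all), -0.34 to -0.23 (large), -0.42 to -0.36 (small) and -0.36 to -0.31 (small, bacterial-type). The cause of these moves was not tested.

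On total-signal scaling the direction turned in 33 of the 57 members called at 60 min and in 22 of the 55 called for 60 against 10 min, all of them falls, and in 0 of the 15 called at 10 min. Of these, 22 and 7 were then called higher. The largest changes in each comparison, chosen by the rule for named members, kept their direction there. The calls lost most often were those of MRPL4 and MRPL11 at 10 min. No paired analysis was possible because no label ties the library numbers of the columns to replicate numbers. A group left with 1 library took its spread from the other groups. Depth is unknown, so no counting error is given.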
